A study of Mus musculus with 25 samples.

Results

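WNK1-deficient thymocytes taken 48 hr after anti-CD3ε were set beside control thymocytes taken 24 hr after it, to ask whether the mutant cells at the later time are where the control cells were at the earlier one. The comparison used 6 of the 25 RNA sequencing libraries of the series, 3 libraries per group, and 13679 of the 48795 genes in the deposited table. Members were chosen by label: all libraries titled as knockout at 48 hr or as heterozygous at 24 hr, and all genes with a mean normalized count of at least 10 over the 25 libraries that are not placed on chromosome X or Y.

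Each library came from the sorted thymocytes of 1 mouse. All mice were Rag1KO, carried the CD2Cre transgene, were 7 to 8 weeks old and, in the groups used here, had received 150 µg of anti-CD3ε into the peritoneum. Control mice were Wnk1fl/+, so that Cre leaves 1 intact Wnk1 allele, and WNK1-deficient mice were Wnk1fl/fl, in which Cre removes exon 2 from both alleles. The transgene is driven by the human CD2 promoter, which is active in the lymphoid lineage, so cells of other lineages keep Wnk1. The sort on Thy1.2+ CD44- cells took DN3 and DN4 thymocytes together, without parting the stages. No mouse can rearrange its T cell receptor genes. Control libraries at 48 hr and WNK1-deficient libraries at 24 hr, 3 of each, are given beside the main comparison to place it.

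Developing T cells must pass the β-selection checkpoint between the DN3 and the later double-negative and double-positive (DP) stages. A signal from the pre-TCR, which antibody to CD3ε imitates in Rag1-deficient mice, makes the cells shut down the DN3 programme, divide in a burst and then return to rest as they take on DP traits. WNK1 is a kinase that controls ion uptake through the kinases OXSR1 and STK39 and transporters of the SLC12A family. A response that runs late but is otherwise the same would place mutant cells at a later time beside control cells at an earlier one.

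Depth, as whole reads recovered from the values, was 22.5 to 46.5 M (megareads) in the control libraries at 24 hr and 29.7 to 57.3 M in the WNK1-deficient libraries at 48 hr. The sorted gate was Thy1.2+ CD44-, and Thy1 (normalized counts of 29874, 31606 and 44164 in controls at 24 hr and 33661, 49683 and 56155 in WNK1-deficient cells at 48 hr), Cd3e and Cd3g were high in all 6 libraries, so the T-lineage label held. The groups differ in more than genotype and time. All 3 control libraries at 24 hr came from male mice by their Y-linked counts and all 3 WNK1-deficient libraries at 48 hr from female mice by Xist, so sex cannot be told apart from the comparison, and genes on X and Y were left out for that reason. By the lane number in the sample names, the control libraries lay on lanes 4, 4 and 3 and the WNK1-deficient libraries on lanes 1, 1 and 3. Only lane 3 held a library of each group, replicate 3 of both. These same 2 libraries stood apart from the others of their group: on the first principal component over the genes tested (37.0% of the variance), the control libraries lay at 63.0, 62.5 and -3.36 and the WNK1-deficient libraries at 66.2, 75.3 and 15.9. Many results are also given without them or within lane 3, and their part in the results was not tested further.

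Wnk1 itself (chromosome 6, 119923969 to 120038695 of GRCm38) had 7281, 5433 and 6286 in the control libraries at 24 hr and 9046, 5142 and 5145 in the WNK1-deficient libraries at 48 hr (normalized counts, here and below for single genes). The groups overlapped (log2 difference -0.02, SE 0.23, adjusted p = 0.962, 95% interval -0.51 to 0.47), and Wnk1 was higher in control cells at 48 hr than at 24 hr (log2 difference 1.04, adjusted p = 0.00436). At matched times the knockout libraries were lower, with a log2 difference of -1.05 at 48 hr (adjusted p = 0.00555) and -0.95 at 24 hr (adjusted p = 0.0104). Exons outside the deleted part still give reads, so these counts check the labels only in part.

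WNK1-deficient thymocytes at 48 hr differed from control thymocytes at 24 hr at 4439 of the 13679 genes tested (32.5%), 2201 higher (16.1%) and 2238 lower (16.4%), at an adjusted p under 0.05 in limma. Of these, 1870 changed at least 2-fold and 537 at least 4-fold. The values of the groups did not overlap at 34.8% of genes. For 6896 genes (50.4%) the 95% interval of the difference lay wholly within 2-fold in either direction. The median difference over all genes was near 0 (0.0089 on the log2 scale) and the median size was 0.45.

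The same fit gave lower counts between WNK1-deficient and control cells of the same time, and between times. At 48 hr the count was 1787 (13.1% of genes, with 6.01% higher in WNK1-deficient cells and 7.05% lower) and at 24 hr 1713 (12.5%, with 7.00% higher and 5.52% lower). From 24 to 48 hr it was 3199 in control cells (23.4%, with 13.1% rising and 10.3% falling) and 896 in WNK1-deficient cells (6.55%, with 3.44% rising and 3.11% falling). These comparisons share libraries with one another, and the differences between the counts were not tested. By Xist and Y-linked counts, both groups at 24 hr are male and both at 48 hr female. Comparisons at the same time are thus matched for sex, and the main comparison and those between times are not. Time therefore cannot be told apart from sex or lane in the order of the counts. The count of 4439 depended on the spread taken from all 8 groups and on the lanes: it was 916 when only the 6 libraries were fitted, 734 with lane as a covariate, a fit in which WNK1-deficient replicate 3 alone links lanes 1 and 2 with lanes 3 and 4, and 3995 (1987 higher, 2008 lower) without replicate 3 of either group. It fell to 2783 without WNK1-deficient replicate 1. Single libraries moved the other counts as well. The count at 48 hr was 986 or 1076 when control replicate 2 or 3 was left out, and 1115 when replicate 3 of the WNK1-deficient cells was. The count at 24 hr was 971, 863 and 1058 without WNK1-deficient replicate 1, 2 or 3. From 24 to 48 hr it was 1091 in control cells without replicate 3 at 48 hr, and in WNK1-deficient cells 319 and 287 without replicate 1 or 2 at 24 hr and 475 without replicate 1 at 48 hr.

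**Figure D1:**
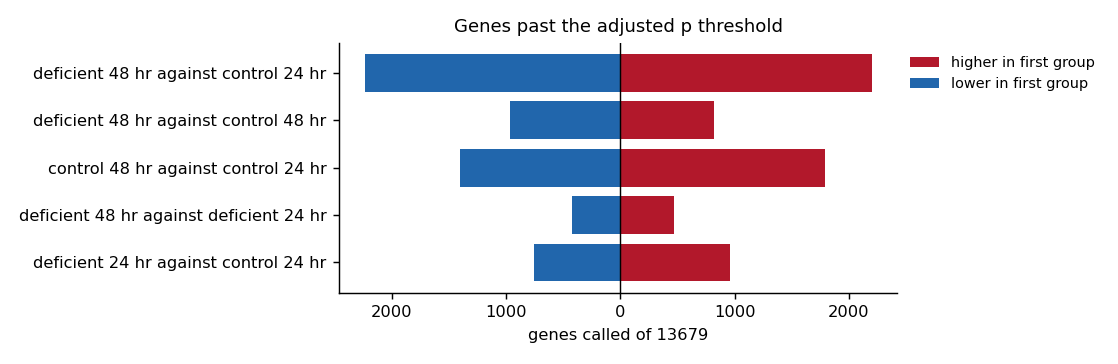
Number of genes past the adjusted p threshold in each comparison, of 13679 tested, drawn to the right for genes higher in the group named first and to the left for genes lower in it. WNK1-deficient 48 hr against control 24 hr had the largest count of the 5 comparisons drawn, with 2201 genes higher and 2238 lower.

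The whole profiles were compared by distance. As a root mean square difference of log2 values over the genes tested, a WNK1-deficient library at 48 hr lay 1.17 ± 0.0989 (SD, 9 pairs) from a control library at 24 hr, 1.01 ± 0.0895 from a control library at 48 hr and 0.944 ± 0.0877 from a WNK1-deficient library at 24 hr (9 pairs each). Within groups the mean distance was 0.859 (3 pairs) among WNK1-deficient libraries at 48 hr and 0.899 (3 pairs) among control libraries at 24 hr. Each of the 3 WNK1-deficient libraries at 48 hr was nearer on average to the control libraries at 48 hr (1.03, 0.940 and 1.07 by replicate) than to those at 24 hr (1.24, 1.19 and 1.09). Pairs share libraries, so no test was made of these distances. The control libraries at 48 hr also came from female mice (Xist 10918 to 45584 normalized counts) and lay on lanes 2, 2 and 1. They were nearer in sex and lane to the WNK1-deficient libraries at 48 hr than the male control libraries at 24 hr were. Time and sex or lane therefore cannot be told apart in the order of these control groups. The WNK1-deficient libraries at 24 hr, the nearest of these groups, came from male mice (Y-linked 4603 to 5368 normalized counts) and lay on lanes 3, 3 and 4.

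A time axis was then laid through the control cells. The 5829 genes (42.6% of those tested, 21.7% rising and 20.9% falling) that differed between control cells at 48 hr and at 0 hr (uninjected) were used. Neither group of the comparison enters that difference, though both shared in the spread and in the filter on mean counts. Each library was placed between the mean of control cells at 0 hr (position 0) and at 48 hr (position 1). The control libraries at 24 hr lay at 0.87, 0.85 and 0.51, and the WNK1-deficient libraries at 48 hr at 0.95, 0.98 and 0.68. Replicates 1 and 2 of the WNK1-deficient cells thus had higher positions than every control library at 24 hr, and replicate 3 of each group had the lowest of its group. The genotypes differed in position before the injection too: uninjected WNK1-deficient libraries lay at 0.241 to 0.271, where uninjected controls lie at 0 by construction. At 3 hr WNK1-deficient libraries lay at 0.436 to 0.545 and control libraries at 0.260 to 0.381, and at 24 hr WNK1-deficient libraries lay at 0.91 to 0.92. Before injection the libraries of the 2 genotypes thus had different positions on this axis. All 3 uninjected control libraries lay on lane 1, however, and all 4 uninjected WNK1-deficient libraries on lane 2. Uninjected controls also took part in choosing the axis genes and set position 0. Genotype therefore cannot be told apart here from lane or from the way the axis was built. Both ends of the axis, control cells at 0 hr (all on lane 1) and at 48 hr, are from female mice, as are the WNK1-deficient libraries at 48 hr, whereas control cells at 24 hr are from male mice on lanes 4, 4 and 3, so position and sex or lane cannot be told apart in this comparison.

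**Figure D2:**
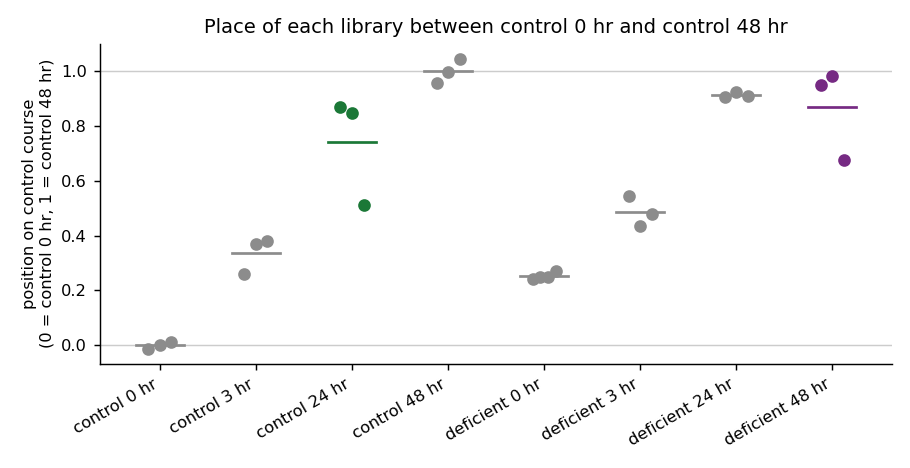
Position of each of the 25 libraries on an axis from the mean of control cells at 0 hr (0) to the mean of control cells at 48 hr (1), computed by least squares over 5829 genes, with points for libraries and lines for group means. Control 24 hr (green) averaged 0.743 and WNK1-deficient 48 hr (purple) 0.87, and the lowest point of each is replicate 3.

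Split by direction, more axis genes differed from control cells at 24 hr in the direction of the control course than against it. Of 2964 genes that rise along the control course, 877 were higher in WNK1-deficient cells at 48 hr than in control cells at 24 hr (29.6%, beside 16.1% of all genes) and 237 were lower (8.00%, beside 16.4%). Of 2865 genes that fall along it, 830 were lower (28.97%) and 237 higher (8.27%). Relative to control cells at 0 hr, the median rising gene stood 0.58 higher (log2) in control cells at 24 hr, 0.89 higher in WNK1-deficient cells at 48 hr and 1.06 higher in control cells at 48 hr, and for the falling genes the medians were -0.67, -0.86 and -1.002. The order of these medians was thus control 24 hr, WNK1-deficient 48 hr, control 48 hr. Without replicate 3 the mean position on the axis was 0.859 for control cells at 24 hr and 0.966 for WNK1-deficient cells at 48 hr. The counts by direction were made with replicate 3 only. Sex and lane cannot be told apart from time here either.

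Genes of cell division were called lower more often than genes at large, of which 16.4% were lower. Of 30 genes for replication licensing and the replication fork, 18 were lower in WNK1-deficient cells at 48 hr than in control cells at 24 hr and none was higher, with a median difference of -0.89. Of 18 genes of mitosis, 10 were lower and none higher (median -1.07), and of 16 G1 and S phase drivers 7 were lower and 2 higher (median -0.74). The count for replication genes was 19 without replicate 3 of either group, 9 when only the 6 libraries were fitted and 0 with lane as a covariate. For mitosis these counts were 10, 3 and 0, and it fell to 3, 5 or 4 without WNK1-deficient replicate 2, WNK1-deficient replicate 1 or control replicate 1. For the G1 and S phase drivers they were 6, 1 and 0, with 4 left without WNK1-deficient replicate 2.

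Promoters are shown here for 2 replication genes and 2 mitosis genes that were called lower, since genes of these lists are known for shared short elements near their starts. Each window runs from 250 bases before to 50 bases after a start site given by RefSeq (GRCm38.p6), and 24 of the 30 replication genes and 17 of the 18 mitosis genes matched an entry, the first listed for each gene. For replication genes, capitals mark the E2F-type letters TTTGGCGC, TTTCCCGC, TTTCGCGC or TTTGCCGC on either strand, where matches may overlap. For mitosis genes, capitals mark TTTGAA or TTCGAA on either strand, the letters of the element called the cell cycle genes homology region.
Mcm5 (chr8:75109259-75109558, plus strand): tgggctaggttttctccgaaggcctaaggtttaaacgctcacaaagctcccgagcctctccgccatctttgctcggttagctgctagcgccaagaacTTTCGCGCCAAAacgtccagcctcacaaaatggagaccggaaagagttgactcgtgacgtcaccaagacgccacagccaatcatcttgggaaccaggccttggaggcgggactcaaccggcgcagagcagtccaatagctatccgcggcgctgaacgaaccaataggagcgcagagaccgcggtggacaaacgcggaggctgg
Cdc6 (chr11:98907901-98908200, plus strand): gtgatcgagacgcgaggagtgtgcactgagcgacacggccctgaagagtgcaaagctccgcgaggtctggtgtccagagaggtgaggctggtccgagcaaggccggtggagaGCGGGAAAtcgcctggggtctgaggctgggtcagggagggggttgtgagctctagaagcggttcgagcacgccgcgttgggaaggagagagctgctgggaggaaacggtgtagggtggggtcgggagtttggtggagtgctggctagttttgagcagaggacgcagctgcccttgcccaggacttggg
Ccnb2 (chr9:70421505-70421804, minus strand): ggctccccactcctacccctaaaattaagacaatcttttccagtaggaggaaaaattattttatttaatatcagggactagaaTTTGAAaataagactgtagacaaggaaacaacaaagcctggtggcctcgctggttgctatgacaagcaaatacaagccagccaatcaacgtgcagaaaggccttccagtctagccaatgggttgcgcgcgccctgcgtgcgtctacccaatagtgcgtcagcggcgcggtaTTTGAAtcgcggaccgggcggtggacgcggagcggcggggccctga
Plk1 (chr7:122159185-122159484, plus strand): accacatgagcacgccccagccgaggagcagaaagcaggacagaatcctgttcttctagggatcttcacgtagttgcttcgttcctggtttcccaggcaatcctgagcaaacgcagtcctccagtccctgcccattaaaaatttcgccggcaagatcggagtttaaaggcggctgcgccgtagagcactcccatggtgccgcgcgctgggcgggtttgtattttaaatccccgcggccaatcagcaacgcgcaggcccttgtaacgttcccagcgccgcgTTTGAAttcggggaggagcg

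The E2F-type letters were in 11 of 24 replication promoters (45.8%), beside 2.32% of all 27025 promoters and 4.31% of the 9394 that belong to genes tested. Mcm5 held 2 overlapping matches, 1 on each strand, and Cdc6 held 1. The mitosis letters were in 13 of 17 mitosis promoters (76.5%), beside 19.4% of all promoters and 13.9% of those of genes tested, with 2 matches in Ccnb2 and 1 in Plk1. The letters of the sterol regulatory element, searched likewise in the promoters of the cholesterol and fatty acid synthesis genes, were in 0 of 8, beside 0.0851% of all promoters, which says only that these letters are not in those windows. A match is only a run of letters and was not tested as a site.

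Among licensing factors, Mcm5, a subunit of the replicative helicase, had 16605, 18233 and 21464 in the control libraries at 24 hr and 7767, 5599.6 and 11669 in the WNK1-deficient libraries at 48 hr (log2 difference -1.23, SE 0.30, adjusted p = 0.00503). The 2 groups did not overlap, with WNK1-deficient replicate 3 the highest of its group and still below each control. Control cells at 48 hr had 9587 ± 4443 (SD, n = 3) and WNK1-deficient cells at 24 hr 10448 ± 469 (SD, n = 3). The helicase subunit Mcm2 (-1.12, adjusted p = 0.00249) and Cdc6, which loads the helicase onto origins (-1.201, adjusted p = 0.0181), were lower too, and the groups did not overlap at either gene. Orc1, of the origin recognition complex, overlapped between groups and did not pass (log2 difference -0.89, SE 0.38, adjusted p = 0.0781). The call for Cdc6 was lost when only the 6 libraries were fitted, with lane as a covariate, and without WNK1-deficient replicate 2 or control replicate 3.

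At the fork, the largest difference of the list was that of Gins2, a part of the helicase complex, with 1441, 1402 and 2022 in the control libraries at 24 hr and 547, 388 and 809.9 in the WNK1-deficient libraries at 48 hr (log2 difference -1.52, SE 0.31, adjusted p = 0.00133). The groups lay apart, and replicate 3 was the highest library of each. Prim2, a primase subunit, had 2523, 2326 and 2880.2 in the control libraries at 24 hr and 1013, 665 and 1520.0 in the WNK1-deficient libraries at 48 hr (log2 difference -1.35, SE 0.24, adjusted p = 0.000399), again without overlap. Within lane 3 alone, where 1 library of each group lies, the difference was -0.88 for Mcm5, -1.32 for Gins2 and -0.92 for Prim2, all in the same direction as over the 6 libraries, while with lane as a covariate, where the differences were -0.64, -0.99 and -0.69, none of these 3 genes passed.

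In mitosis the B-type cyclin Ccnb2 had 5661, 4748 and 3322 in the control libraries at 24 hr and 1552, 769.6 and 2041 in the WNK1-deficient libraries at 48 hr (log2 difference -1.73, SE 0.38, adjusted p = 0.00222). The lowest control was well above the highest WNK1-deficient library. Cdk1, the kinase that cyclin B activates, had 4863, 3304 and 3965 in the control libraries at 24 hr and 1401, 1062 and 2533 in the WNK1-deficient libraries at 48 hr (log2 difference -1.36, SE 0.39, adjusted p = 0.0115), and the groups lay apart here also, but the call was lost without WNK1-deficient replicate 2. The mitotic kinase gene Plk1 (-1.22, adjusted p = 0.0267) was called but lost its call in 6 alternatives, among them the fit without WNK1-deficient replicate 1 or 2 and without control replicate 1 or 2.

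Against control cells at 48 hr, no gene of replication or mitosis passed. Of the 30 replication genes and the 18 mitosis genes, 0 passed in limma, and 0 passed in edgeR or DESeq2 or at an unadjusted p under 0.05. For 25 of the 30 replication genes the interval lay within 2-fold, and for 8 of the 18 mitosis genes, where the spread was wider. In control cells, 21 of 30 replication genes and 5 of 18 mitosis genes were lower at 48 hr than at 24 hr (medians -0.89 and -1.004), beside 10.3% of all genes. Those control groups were male at 24 hr and female at 48 hr and shared no lane. Time therefore cannot be told apart from sex or lane there, and with lane as a covariate 26 of all genes passed. WNK1-deficient libraries were likewise male at 24 hr and female at 48 hr. In WNK1-deficient cells 0 of 30 and 0 of 18 passed in limma between 24 and 48 hr (0 in edgeR and DESeq2, with 1 and 7 at an unadjusted p under 0.05), with medians of -0.18 and -0.77. At 24 hr, 14 of 30 replication genes were already lower in WNK1-deficient than in control cells and 0 of 18 mitosis genes (0 in edgeR and DESeq2, and 0 at an unadjusted p under 0.05). Of all genes 5.52% were lower in that comparison.

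Among drivers of S phase entry, E2f1, a transcription factor for replication genes, had 1616, 1570.3 and 2177 in the control libraries at 24 hr and 893, 501 and 1289 in the WNK1-deficient libraries at 48 hr (log2 difference -1.09, SE 0.28, adjusted p = 0.00721), with no overlap. Ccne1, the cyclin that starts S phase, was lower (log2 difference -1.13, adjusted p = 0.0174), a call lost without control replicate 1 or WNK1-deficient replicate 2, and so was Tfdp1, whose protein pairs with E2F factors (-0.81, adjusted p = 0.00453). Among the brakes of the cycle, 3 of 10 CDK inhibitor and pocket protein genes were higher and 2 lower (1 and 0 with lane as a covariate). This made 50% called, beside 32.5% of all genes. Cdkn1b, which encodes p27, had 2436, 2178 and 1943 in the control libraries at 24 hr and 4229, 3737 and 3696 in the WNK1-deficient libraries at 48 hr (log2 difference 0.83, SE 0.16, adjusted p = 0.000714), and the groups lay apart. Cdkn1a, which encodes p21, went the other way, with 173, 406 and 556 in the control libraries at 24 hr and 71.5, 49.5 and 129 in the WNK1-deficient libraries at 48 hr (log2 difference -2.12, SE 0.40, adjusted p = 0.00066). Fbxw7, which marks cyclin E and MYC for destruction, was higher (0.98, adjusted p = 0.000637), and Myc itself, with 2068, 3136 and 9788 in the control libraries at 24 hr and 5134, 4673 and 10199.6 in the WNK1-deficient libraries at 48 hr, overlapped and did not pass (log2 difference 0.65, SE 0.37, adjusted p = 0.184). This turned on replicate 3, the highest library of each group. Without replicate 3 of either group Myc was called higher (log2 difference 0.94, adjusted p = 0.00668).

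Genes of precursor synthesis for growing cells were next, set beside the 16.4% of all genes called lower. Of 17 nucleotide and one-carbon synthesis genes, 9 were lower and none higher (median -0.60), and of 15 cholesterol and fatty acid synthesis genes 10 were lower and 1 higher (median -0.82). Without replicate 3 of either group these counts of lower genes were 8 and 9. They were 0 and 4 with lane as a covariate, 3 and 3 when only the 6 libraries were fitted, and 5 and 6 without WNK1-deficient replicate 2, and the nucleotide count was also 5 without WNK1-deficient replicate 1 or control replicate 3. The thymidine kinase gene Tk1 had 3251, 3171 and 3898 in the control libraries at 24 hr and 948, 684 and 1526 in the WNK1-deficient libraries at 48 hr (log2 difference -1.78, SE 0.36, adjusted p = 0.00117), and the groups lay far apart. Tyms, which makes thymidylate, was lower (-1.57, adjusted p = 0.00349), whereas the mitochondrial one-carbon enzyme gene Mthfd2 overlapped (0.08, adjusted p = 0.755).

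Fdps, an enzyme of the mevalonate pathway, had 4217, 4693 and 4970.3 in the control libraries at 24 hr and 1531, 1698 and 2396 in the WNK1-deficient libraries at 48 hr (log2 difference -1.33, SE 0.27, adjusted p = 0.0012) and kept its call under every alternative. Sqle, which opens the sterol branch (-1.35, adjusted p = 0.00566), was lower without overlap. Against control cells at 48 hr, 1 of 15 cholesterol genes passed and 0 of 17 nucleotide genes (0 in edgeR and DESeq2, and 0 at an unadjusted p under 0.05).

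**Figure D3:**
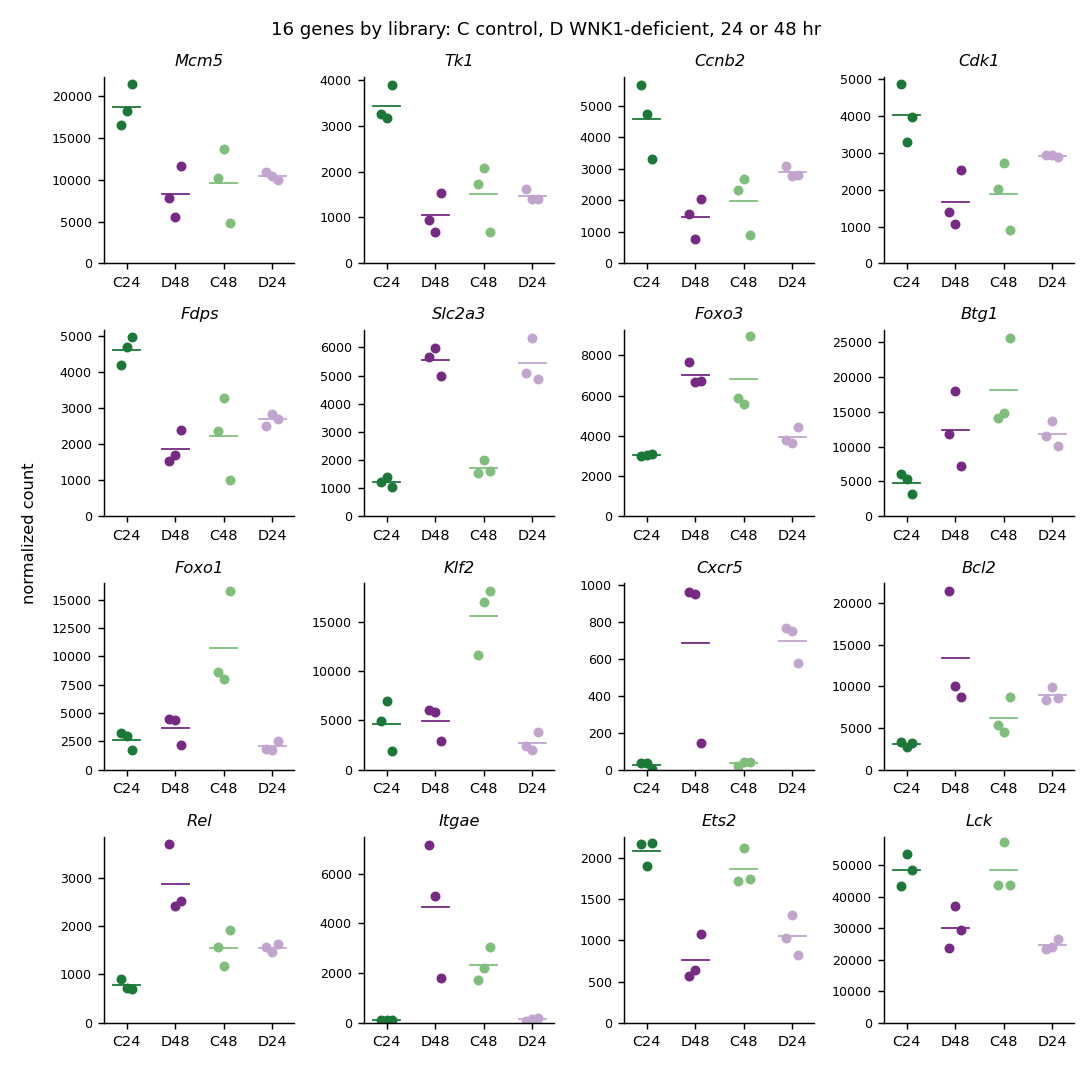
Normalized counts of 16 genes in each library of control 24 hr (C24), WNK1-deficient 48 hr (D48), control 48 hr (C48) and WNK1-deficient 24 hr (D24), with lines at group means and each vertical axis starting at 0. For Mcm5, Tk1, Ccnb2, Cdk1 and Fdps the D48 points lie below every C24 point, whereas for Cxcr5 the D48 points lie above both control groups.

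Genes of general biosynthesis differed by list. Of 15 ribosome biogenesis genes 1 was higher and none lower (6.67%, beside 32.5% of all genes), and for 12 of the 15 the interval lay within 2-fold. All 13 translation factor genes had intervals within 2-fold, with 3 called lower (23.1%), a count that was 1 with the replicate block, 1 without replicate 3 of either group and 0 without control replicate 3, without WNK1-deficient replicate 1, or after quantile normalization. In glycolysis, 3 of 15 genes were higher and 4 lower (46.7% called), with 1 and 1 left with lane as a covariate and 1 lower without WNK1-deficient replicate 1 or control replicate 2. The glucose transporter gene Slc2a3 had 1231, 1417 and 1044 in the control libraries at 24 hr and 5675, 5969 and 4985 in the WNK1-deficient libraries at 48 hr (log2 difference 2.18, SE 0.22, adjusted p = 1.23e-06), with the highest control far below the lowest WNK1-deficient library. The lactate dehydrogenase gene Ldha had 29903, 30623 and 35699.7 in the control libraries at 24 hr and 14230.2, 17445 and 17385 in the WNK1-deficient libraries at 48 hr (log2 difference -0.97, SE 0.17, adjusted p = 0.000404), without overlap and in the other direction.

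Genes of quiescence and egress mark cells that return to rest and leave the thymus. Of 11 such genes, 4 were higher than in control cells at 24 hr and none lower (median 0.26). Against control cells at 48 hr, 4 were lower and none higher (median -0.79). In control cells, 6 of 11 were higher at 48 hr than at 24 hr (median 1.12), groups that also differ in sex and lane. Of all genes 16.1%, 7.05% and 13.1% were called in these 3 directions. The count of 4 higher genes was 2 without replicate 3 of either group and 1 with lane as a covariate. Foxo3, a transcription factor of resting cells, had 2975, 3057 and 3083 in the control libraries at 24 hr and 7656, 6649 and 6735 in the WNK1-deficient libraries at 48 hr (log2 difference 1.204, SE 0.16, adjusted p = 3.40e-05), beside control cells at 48 hr (6796 ± 1861, SD, n = 3). The antiproliferative gene Btg1 had 6063, 5331 and 3167 in the control libraries at 24 hr and 11741, 17940.2 and 7272 in the WNK1-deficient libraries at 48 hr (log2 difference 1.30, SE 0.29, adjusted p = 0.00264), also without overlap.

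Foxo1, which drives the egress genes, had 3253, 2948 and 1708 in the control libraries at 24 hr and 4498, 4383 and 2151 in the WNK1-deficient libraries at 48 hr (log2 difference 0.46, SE 0.28, adjusted p = 0.222), and its groups overlapped. Its target Klf2 had 4964, 6942 and 1932 in the control libraries at 24 hr and 6084, 5826 and 2889 in the WNK1-deficient libraries at 48 hr (log2 difference 0.21, SE 0.71, adjusted p = 0.846), and Klf2 in turn controls S1pr1, the egress receptor gene, with 1914, 2312 and 440.4 in the control libraries at 24 hr and 2074, 1929 and 137 in the WNK1-deficient libraries at 48 hr (log2 difference -0.61, SE 1.25, adjusted p = 0.736). For these 3 genes replicate 3 was the lowest library of each group and the groups overlapped, and none passed. The intervals were wide, -1.26 to 1.67 for Klf2 and -3.22 to 2.00 for S1pr1, so these data do not place the groups at 1 level either. Control cells at 48 hr had 10781 ± 4301 Foxo1, 15611 ± 3434 Klf2 and 11808 ± 4454 S1pr1 (SD, n = 3). Against those, the difference in WNK1-deficient cells at 48 hr was -1.56 (adjusted p = 0.00123) for Foxo1, which passed. It was -3.79 (adjusted p = 0.0499) for S1pr1, which passed at the edge of the threshold, and -1.71 (adjusted p = 0.115) for Klf2, which did not. Of the 11 genes of quiescence and egress, edgeR called 3 lower in that comparison, where limma called 4.

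Gimap3, of the GIMAP family of lymphocyte GTPases, overlapped too, with 699, 932 and 159 in the control libraries at 24 hr and 734, 743 and 80.00 in the WNK1-deficient libraries at 48 hr (log2 difference -0.41, SE 0.95, adjusted p = 0.765) and 6803 ± 2593 in control cells at 48 hr (SD, n = 3). Of the 8 GIMAP genes 1 was higher and 1 lower than in control cells at 24 hr (0 lower with the replicate block), while 2 were lower and none higher than in control cells at 48 hr. Of all genes 32.5% and 13.1% were called in these 2 comparisons. Gimap7 was the higher one, with 865, 837 and 401 in the control libraries at 24 hr and 1901, 2931 and 944 in the WNK1-deficient libraries at 48 hr (log2 difference 1.39, SE 0.35, adjusted p = 0.00593).

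Stage genes were read beside the 32.5% of all genes called. Of 8 DN3 genes 1 was higher and none lower (12.5%, median -0.68), and of 15 genes on the way to the DP stage 3 were higher and 2 lower (33.3%). No call of either list held with lane as a covariate or when only the 6 libraries were fitted. Ptcra, the pre-TCR α chain, had 59.2, 115 and 2344 in the control libraries at 24 hr and 18.2, 22.5 and 574 in the WNK1-deficient libraries at 48 hr, and Dntt, which adds bases at receptor joints, had 8104, 8811 and 47329 in the control libraries at 24 hr and 4519, 3342 and 27659.8 in the WNK1-deficient libraries at 48 hr. Neither passed (-1.99 and -1.01, adjusted p = 0.14 and 0.199), and replicate 3 was the highest library of each group at both. Without replicate 3 of either group both were called lower, Ptcra at -1.98 (adjusted p = 0.000657) and Dntt at -1.12 (adjusted p = 0.00874). In that fit 2 DN3 genes were lower and 2 higher. Over all libraries 1 DN3 gene was lower in edgeR and 2 in DESeq2. The stem cell factor receptor gene Kit, a gene of earlier stages, had 426, 780.2 and 1147 in the control libraries at 24 hr and 3456, 1772 and 2548 in the WNK1-deficient libraries at 48 hr (log2 difference 1.78, SE 0.47, adjusted p = 0.00722), with no overlap. Of 7 early progenitor genes it alone was called in the main fit, and the median of that list was -0.36.

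Trac, the constant region of the TCR α locus, which Rag1-deficient cells can transcribe but not rearrange, had 1634, 2755 and 348 in the control libraries at 24 hr and 314, 586 and 62.8 in the WNK1-deficient libraries at 48 hr. It was called lower (log2 difference -2.35, SE 0.83, adjusted p = 0.0347) although the groups overlapped, and the call was lost with the replicate block (adjusted p = 0.0523) and in 7 other alternatives. Control cells at 48 hr had 2304 ± 916 (SD, n = 3). The coreceptor gene Cd4 overlapped between WNK1-deficient cells at 48 hr and control cells at 24 hr (log2 difference -1.39, SE 0.94, adjusted p = 0.266), and was lower than in control cells at 48 hr (-3.14, adjusted p = 0.032).

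Of 18 CD3 and TCR signalling genes, 2 were higher and 2 lower (22.2% called, beside 32.5% of all genes). For 13 the interval lay within 2-fold. Lck, the kinase that starts TCR signalling, had 43474, 53391 and 48425 in the control libraries at 24 hr and 23834, 36922 and 29361 in the WNK1-deficient libraries at 48 hr (log2 difference -0.71, SE 0.17, adjusted p = 0.00441), and lay apart between groups. The chains Cd3e (0.20, interval -0.25 to 0.65) and Cd3d (-0.06, interval -0.47 to 0.35) were held within 2-fold. The call for Lck was lost when only the 6 libraries were fitted and with lane as a covariate, where its difference was -0.74.

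Regulators of the T lineage went both ways. Of 17, 3 were higher and 2 lower (29.4% called, beside 32.5% of all genes), with 5 higher in edgeR and in DESeq2 and 1 with lane as a covariate. Bcl11b, which fixes T cell commitment, had 14866, 13228 and 15889 in the control libraries at 24 hr and 32799.5, 26919 and 25780.4 in the WNK1-deficient libraries at 48 hr (log2 difference 0.95, SE 0.17, adjusted p = 0.000496), and its difference from control cells at 48 hr had an interval of -0.39 to 0.33. Runx3 was likewise higher (1.07, adjusted p = 0.00203). Ets2 had 2169, 1901 and 2176 in the control libraries at 24 hr and 569, 639 and 1077 in the WNK1-deficient libraries at 48 hr (log2 difference -1.50, SE 0.25, adjusted p = 0.000246), and Lef1, a factor of the WNT pathway that promotes the DP stage, had 32296, 46516 and 21458 in the control libraries at 24 hr and 12724, 14575 and 8630.4 in the WNK1-deficient libraries at 48 hr (log2 difference -1.44, SE 0.30, adjusted p = 0.00137). Both lay below control cells of either time, with differences from control cells at 48 hr of -1.34 (adjusted p = 0.00151) and -1.12 (adjusted p = 0.0165).

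Lists of cell migration, survival and NF-kB signalling held mostly higher genes among those called. Of 9 chemokine receptor genes 4 were higher and none lower (median 1.177), of 11 BCL2 family genes 4 were higher and 1 lower, of 12 NF-kB subunit and inhibitor genes 6 were higher and none lower (median 0.56), and of 16 integrin and RAP GTPase genes 4 were higher and none lower. The shares called were 44.4%, 45.5%, 50% and 25%, beside 32.5% of all genes (16.1% higher). The integrin and RAP share was thus below that of all genes called. The NF-kB count rested on replicate 3: it was 1 without replicate 3 of either group and 3 without WNK1-deficient replicate 3, and 1 when only the 6 libraries were fitted. The chemokine receptor count was 2 when only the 6 libraries were fitted, with lane as a covariate, or without WNK1-deficient replicate 2, and 5 without replicate 3 of either group. The integrin count was 7 without replicate 3 of either group and 8 without WNK1-deficient replicate 3, and the BCL2 family count was 2 when only the 6 libraries were fitted and 6 in DESeq2.

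Among adhesion genes, Icam1, a ligand of the integrin LFA-1, had 682, 843 and 556 in the control libraries at 24 hr and 1286, 1814 and 1686 in the WNK1-deficient libraries at 48 hr (log2 difference 1.21, SE 0.18, adjusted p = 8.56e-05), and the small GTPase gene Rap2a had 527, 472 and 359 in the control libraries at 24 hr and 1138, 1061 and 794 in the WNK1-deficient libraries at 48 hr (log2 difference 1.14, SE 0.23, adjusted p = 0.00117). Neither pair of groups overlapped, and both calls held under every alternative.

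Cxcr5, a receptor for the B cell follicle chemokine, had 37.8, 34.9 and 4.59 in the control libraries at 24 hr and 959.7, 952 and 142 in the WNK1-deficient libraries at 48 hr (log2 difference 4.68, SE 0.68, adjusted p = 6.28e-05). The groups lay far apart, the lowest library of each was replicate 3, and the difference was 4.67 within lane 3. Control cells at 48 hr were as low, with 33.9 ± 12.96, and WNK1-deficient cells at 24 hr as high, with 699 ± 106 (SD, n = 3 each). Ccr8 had 48.5, 8.32 and 9.18 in the control libraries at 24 hr and 235, 540.4 and 144 in the WNK1-deficient libraries at 48 hr (log2 difference 3.98, SE 0.64, adjusted p = 0.000163), without overlap. Cxcr4, which guides double-negative thymocytes, overlapped (log2 difference -0.38, SE 0.19, adjusted p = 0.126).

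Bcl2, the prosurvival founder of its family, had 3286, 2753 and 3165 in the control libraries at 24 hr and 21431, 10077 and 8751 in the WNK1-deficient libraries at 48 hr (log2 difference 2.01, SE 0.28, adjusted p = 3.40e-05), without overlap and with WNK1-deficient replicate 1 highest. The proapoptotic gene Bbc3 had 114, 135 and 65.1 in the control libraries at 24 hr and 403, 593 and 466 in the WNK1-deficient libraries at 48 hr (log2 difference 2.25, SE 0.32, adjusted p = 5.50e-05), also without overlap. Rel, the c-Rel subunit of NF-kB, had 903, 727 and 704 in the control libraries at 24 hr and 3698, 2415 and 2508 in the WNK1-deficient libraries at 48 hr (log2 difference 1.87, SE 0.24, adjusted p = 2.42e-05), and was also higher than in control cells at 48 hr (0.88, adjusted p = 0.021). Rel, Bcl2, Bbc3, Ccr8 and Cxcr5 were called under every alternative.

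In the WNK pathway itself 2 of 8 genes were higher and none lower (25% called, beside 32.5% of all genes). Stk39 had 427, 391 and 207 in the control libraries at 24 hr and 1639.5, 1876 and 659.7 in the WNK1-deficient libraries at 48 hr (log2 difference 1.95, SE 0.35, adjusted p = 0.000511), and Slc12a2, the sodium, potassium and chloride cotransporter, had 290.2, 185 and 362 in the control libraries at 24 hr and 1188, 811 and 876 in the WNK1-deficient libraries at 48 hr (log2 difference 1.81, SE 0.31, adjusted p = 0.000309). Both pairs of groups lay apart, and both calls were lost with lane as a covariate, where the differences were 1.05 and 1.30. Oxsr1 differed by 0.26 (adjusted p = 0.0709), without passing.

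The count of interferon-stimulated genes turned on replicate 3, and in the main fit 18.75% were called, beside 32.5% of all genes. Of 16, 3 were lower and none higher (median -1.25), but 12 were lower without replicate 3 of either group, 13 without control replicate 3 alone and 11 without WNK1-deficient replicate 3 alone, and 0 with lane as a covariate. Isg15, a ubiquitin-like protein of the antiviral response, had 2267, 1995 and 567 in the control libraries at 24 hr and 198, 297 and 1196 in the WNK1-deficient libraries at 48 hr (log2 difference -1.73, SE 0.52, adjusted p = 0.016). Replicate 3 was the lowest control and the highest WNK1-deficient library, and within lane 3 the difference was 1.08, in the opposite direction. The call was lost without replicate 1 or 2 of either group, and with lane as a covariate the difference was 0.28. Immediate-early genes of TCR signalling went both ways (3 of 13 higher, 1 lower, 30.8% called): Cd69, an activation marker, was higher (log2 difference 1.32, SE 0.32, adjusted p = 0.00471), though not without replicate 3 of either group, and Nr4a1 overlapped (log2 difference -0.81, SE 0.35, adjusted p = 0.0782).

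The remaining lists held called genes in 1 direction or in both, and their shares are given beside the 32.5% of all genes called. Of 10 genes of the MYC network 2 were higher and 2 lower (40%), of 9 genes of MHC class I and antigen processing 1 and 2 (33.3%), of 10 Notch receptors and targets 2 and 1 (30%), of 12 p53 targets 2 and 1 (25%), and of 8 heat shock genes 1 and 1 (25%). Of 9 amino acid and iron uptake genes 2 were higher and none lower (22.2%), of 8 mitochondrially encoded genes 1 and none (12.5%), and of 10 integrated stress response genes none was higher and 1 lower (10%). The Notch counts were 1 and 0 with the replicate block and 5 and 1 without replicate 3 of either group, and neither held with lane as a covariate. Psat1, an enzyme of serine synthesis, had 7716, 7341 and 9687 in the control libraries at 24 hr and 3892, 3092 and 4812 in the WNK1-deficient libraries at 48 hr (log2 difference -1.08, SE 0.24, adjusted p = 0.00248), and kept its call under every alternative. Mga, a repressor of the MYC network, was higher (1.12, adjusted p = 0.00533), as was Zmat3, a p53 target (1.76, adjusted p = 8.56e-05), and Psmb8, a subunit of the immunoproteasome, was lower (-0.84, adjusted p = 0.000436). These 3 calls were each lost with lane as a covariate, where the differences were 1.07, 1.29 and -0.78 (adjusted p = 0.151, 0.0592 and 0.062).

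**Figure D4:**
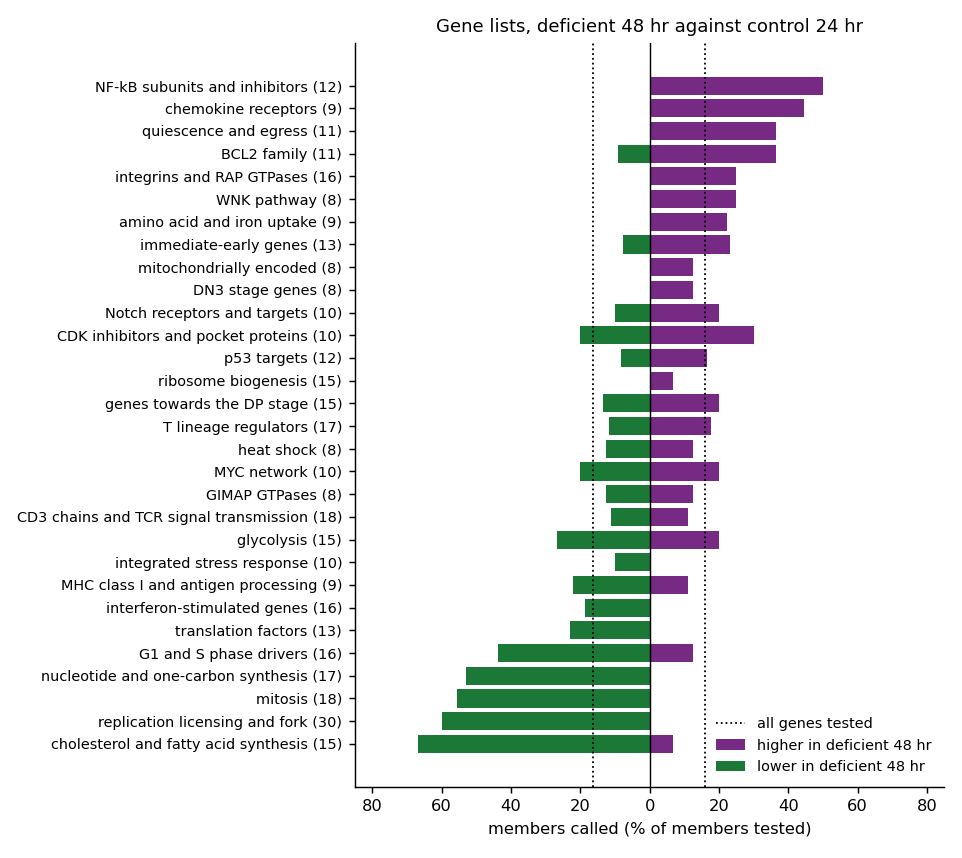
Share of the tested members of 30 gene lists (number tested in brackets) called higher (purple, right) or lower (green, left) in WNK1-deficient cells at 48 hr than in control cells at 24 hr, with dotted lines at the shares of all genes tested, 16.1% and 16.4%. Cholesterol, replication, mitosis and nucleotide genes lie furthest to the left and NF-kB genes and chemokine receptors furthest to the right.

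The 10 largest rises included genes that were low in control cells at both times. Mmp9, a secreted protease, had 6.58, 9.98 and 0.92 in the control libraries at 24 hr and 1485, 1546 and 193 in the WNK1-deficient libraries at 48 hr (log2 difference 7.14, SE 1.01, adjusted p = 4.59e-05). Control cells were low at 48 hr too (8.92 ± 2.90, SD, n = 3), while WNK1-deficient cells at 24 hr had 483 ± 215 (SD, n = 3). Wnt10b, a WNT ligand, had 4.93, 6.65 and 5.51 in the control libraries at 24 hr and 185, 149 and 162 in the WNK1-deficient libraries at 48 hr (log2 difference 4.64, SE 0.39, adjusted p = 1.13e-07), without overlap, and was at 1.12, 0 and 0 in control cells at 48 hr. Npnt, an integrin ligand of the extracellular matrix, was higher by 3.97 (adjusted p = 1.03e-05), Asb2, part of a ubiquitin ligase, by 4.05 (adjusted p = 0.000158) and Podxl, a sialomucin of the cell surface, by 5.69 (adjusted p = 0.00014). For Mmp9, Npnt, Asb2 and Podxl the difference from control cells at 48 hr passed as well, at 6.32, 3.47, 3.29 and 4.06.

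Itgae, the gene for the integrin αE chain, had 94.5, 115 and 95.4 in the control libraries at 24 hr and 7131, 5094 and 1791 in the WNK1-deficient libraries at 48 hr (log2 difference 5.30, SE 0.52, adjusted p = 9.31e-07). Control cells at 48 hr, which differ from those at 24 hr in sex and lane too, were higher by 4.46 (adjusted p = 2.79e-05). WNK1-deficient cells at 48 hr did not differ from control cells at 48 hr past the threshold (log2 difference 0.84, SE 0.52, adjusted p = 0.313). Abca1, a cholesterol exporter, had 22.2, 26.6 and 69.7 in the control libraries at 24 hr and 1795, 2296 and 928 in the WNK1-deficient libraries at 48 hr (log2 difference 5.46, SE 0.55, adjusted p = 1.23e-06), and was higher than in control cells at 48 hr (2.42, adjusted p = 0.00621). Als2cl (4.06, adjusted p = 3.40e-05) and She (4.84, adjusted p = 4.24e-05) were also among the 10, and Cxcr5 was the other.

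**Figure D5:**
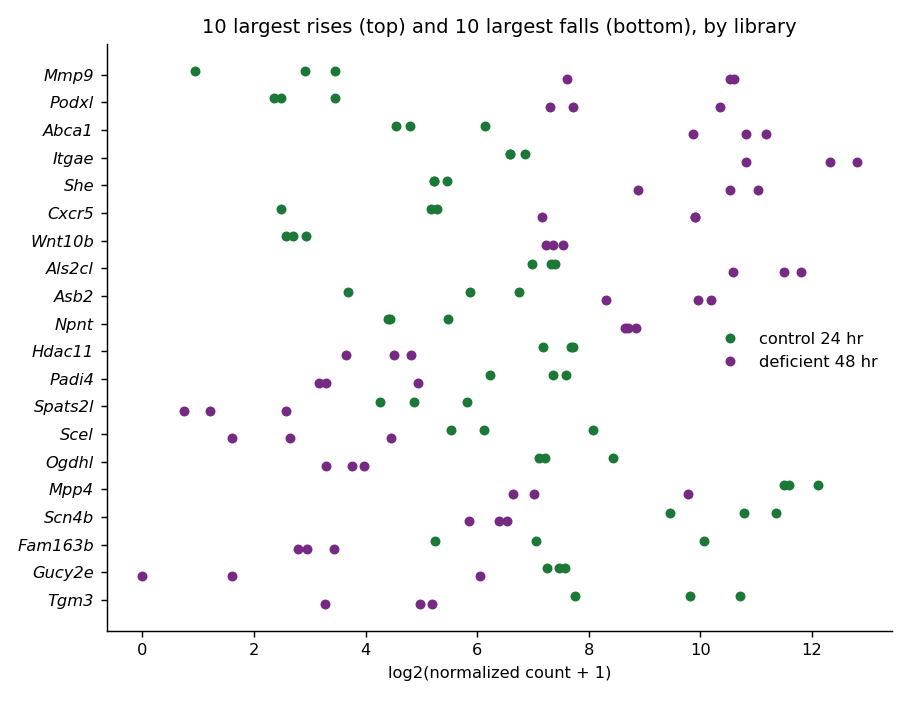
log2(normalized count + 1) of the 10 genes with the largest rise and the 10 with the largest fall, with 1 point per library (green control 24 hr, purple WNK1-deficient 48 hr). By the rule that chose them the groups do not overlap at any of the 20 genes, and the difference is largest for Mmp9, at 7.14 on the log2 scale.

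Among the largest falls, Tgm3, a transglutaminase, had 896, 1667 and 215 in the control libraries at 24 hr and 30.3, 35.7 and 8.62 in the WNK1-deficient libraries at 48 hr (log2 difference -4.94, SE 0.65, adjusted p = 2.45e-05). Control cells at 48 hr had 29.1 ± 6.47 and WNK1-deficient cells at 24 hr 2351 ± 1030.2 (SD, n = 3 each). Tgm3 was thus high at 24 hr and low at 48 hr in both genotypes. Both groups at 24 hr are male and both at 48 hr female, so time cannot be told apart from sex or lane here. Ogdhl, an enzyme related to the 2-oxoglutarate dehydrogenase, had 136, 148 and 344 in the control libraries at 24 hr and 8.77, 12.6 and 14.8 in the WNK1-deficient libraries at 48 hr (log2 difference -3.91, SE 0.37, adjusted p = 6.10e-07), and Hdac11, a histone deacetylase, had 144, 205 and 210.1 in the control libraries at 24 hr and 11.5, 21.8 and 27.1 in the WNK1-deficient libraries at 48 hr (log2 difference -3.21, SE 0.32, adjusted p = 9.31e-07). Both were also lower than in control cells at 48 hr, with differences of -2.14 (adjusted p = 0.000782) and -2.23 (adjusted p = 0.000127), and both were called under every alternative.

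Scn4b, a sodium channel subunit, had 697, 2623 and 1761 in the control libraries at 24 hr and 91.05, 56.8 and 82.5 in the WNK1-deficient libraries at 48 hr (log2 difference -4.28, SE 0.62, adjusted p = 6.05e-05), and Fam163b had 36.99, 131 and 1074 in the control libraries at 24 hr and 6.74, 5.95 and 9.85 in the WNK1-deficient libraries at 48 hr (log2 difference -4.39, SE 0.77, adjusted p = 0.000384). Scn4b, Fam163b, Ogdhl, Hdac11 and Padi4 (-3.26) had their highest group mean in control cells at 0 hr, and Scel (-3.67), Spats2l (-3.47) and Gucy2e (-4.88) in control cells at 3 hr, with a mean of 4426 for Scn4b and 5458 for Fam163b at 0 hr. Mpp4, by contrast, had its highest group mean in control cells at 24 hr, with 2891, 4427 and 3088 in the control libraries at 24 hr and 875, 99.1 and 128 in the WNK1-deficient libraries at 48 hr (log2 difference -3.92, SE 1.01, adjusted p = 0.00652). With lane as a covariate Mpp4, Padi4, Gucy2e, Podxl and She were not called, with differences of -4.61, -2.12, -1.45, 4.68 and 3.25 in that fit.

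Marker genes of other cells moved with the comparison in places. Of 4 γδ T cell genes tested 3 were higher (median 1.39), and the summed level of the list ran from 27694 to 38113 in control libraries at 24 hr and from 47673 to 59875 in WNK1-deficient libraries at 48 hr. Sox13, a γδ lineage factor, had 1199, 2064 and 2788 in the control libraries at 24 hr and 8919.8, 8886 and 6549 in the WNK1-deficient libraries at 48 hr (log2 difference 2.08, SE 0.28, adjusted p = 3.40e-05), and the kinase gene Blk had 996, 1288 and 1043 in the control libraries at 24 hr and 4802, 2617 and 4811 in the WNK1-deficient libraries at 48 hr (log2 difference 1.83, SE 0.30, adjusted p = 0.000239). T cells with a γδ receptor cannot form in these Rag1-deficient mice, so these genes do not measure such cells. Otherwise, in bulk RNA more cells of a type and more RNA per cell cannot be told apart. The summed innate-like and NK list (12 genes, 1 called higher) overlapped between the groups, at 23606 to 30130.2 and 26585 to 51806, as did those of macrophages, dendritic cells and thymic stroma. The early progenitor list, of cells outside the gate, summed to 878 to 1689 and to 2395 to 4938, with Kit the called gene. Of its other genes, Lyl1 was higher without passing (2.42, adjusted p = 0.0683). Bcl11a, Spi1, Cd44, Lmo2 and Mef2c were lower, at -1.07 to -0.14, also without passing, and the list median was -0.36. Gzmb, a granzyme of cytotoxic cells, was the called gene of the innate-like list (3.70, adjusted p = 0.0385), and its groups overlapped. Its call was lost in 8 alternatives. Of the B cell list only Cd79b was tested, and it was lower (-1.13, adjusted p = 0.000888), with Ms4a1 and Pax5 at 0 in every control library at 24 hr. The erythroid list summed to 949.7 to 3056 and 219 to 532. The part of these cells in the results was not tested.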

How the data were processed

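PolyA RNA of sorted thymocytes was made into stranded libraries and read as 75-base single ends. Per the submitters' processing notes and the study's methods, reads were trimmed with Trimmomatic 0.36, aligned with STAR 2.5.2a to the GRCm38 genome with Ensembl release 86 genes, counted with RSEM 1.2.31 and scaled with DESeq2 1.18.1 in R 3.4.1. The authors deposited a table of read counts divided by size factors (unit: signal), 1 column per library. Values were whole multiples of a step in all 25 libraries within a tolerance of 0.001, which gave back whole reads. A further check on low values was met by 23 of the 25.

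Genes with a mean of at least 10 over the 25 libraries were tested (14141), and the 462 on X or Y were then left out. A further 1168 of unknown position were kept, and symbols were found for 12943 of the genes tested. Values were taken as log2(value + 1), which understates the change of low genes. A limma 3.58.1 fit with a trend used 1 mean per group over all 8 groups, in R 4.3.3, with p adjusted by Benjamini-Hochberg over all genes tested, and a gene was called at an adjusted p under 0.05. All SE are of the log2 difference and all intervals are 95%. edgeR 4.0.16 and DESeq2 1.42.0 on the recovered reads were alternatives, as were other scalings, filters, pseudocounts, spreads, lane, the replicate block and leaving out libraries. The named genes were the 10 largest rises and 10 largest falls that passed, had a mean of at least 100 and did not overlap between groups, together with Wnk1 and, of each list, the first 4 genes and up to 4 called genes of the largest change. The genes compared and the lists were chosen with earlier results of these data known.

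Replicate numbers are shared by the groups, though no label ties them to a litter or day. The deviations of same-numbered libraries had correlations of 0.107, 0.349 and 0.378 over genes, and those of other numbers -0.359 to 0.0356. Deviations from a mean of 3 libraries sum to 0, and replicate 3 of both groups lay on lane 3. These correlations therefore do not establish a pairing, and the replicate number was fitted as a block only as an alternative. Each library is from a separate mouse, and all are of 1 experiment. Read depth limits low genes most, and no interval for single libraries is given. Some genes of the lists are counted but not reported here by name.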

Additional observations from a re-analysis of the deposited data

How the results depend on the processing

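The 4439 genes called between WNK1-deficient cells at 48 hr and control cells at 24 hr became 916 when the 6 libraries alone were fitted (469 higher, 447 lower), 734 with lane as a covariate (333 and 401) and 1870 when a 2-fold change was also asked for (928 and 942). Leaving out 1 library at a time gave 2783 to 4441 (1371 to 2156 higher, 1412 to 2285 lower), the lowest without WNK1-deficient replicate 1. Without replicate 3 of both groups, an alternative chosen after seeing the data, 3995 were called, 3523 of them among the 4439. With the replicate number as a block 4193 were called, 4136 of them shared, and of the 129 named genes called 9 lost their call, among them Trac and Hes5. edgeR called 4442 (4180 shared) and DESeq2 4910 (4363 shared). The share of called genes that were higher was 49.6%, and 58.3% after scaling to a common total, 44.0% to a common upper quartile and 47.8% by quantile normalization. Of the 129 named genes called, 32 were called under all 24 alternatives, 87 lost their call with lane, 70 with the 6 libraries alone and 52 without some single library. Hes5 (0.10), Isg15 (0.28), Mxd3 (0.093), Nr4a2 (-0.21) and Oas2 (0.30) changed sign with lane as a covariate. The lane fit rests on WNK1-deficient replicate 3 alone to link lanes 1 and 2 with lanes 3 and 4. Beyond that, the cause was not tested.

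In the other comparisons each library of either group was left out in turn, those of control 48 hr, WNK1-deficient 24 hr and control 0 hr as an alternative chosen after seeing the data. WNK1-deficient against control cells at 48 hr had 529 genes called with lane and 986 to 2136 leaving out 1 library, the lowest without control replicate 2. Control cells from 24 to 48 hr had 26 with lane and 1091 to 3480 leaving out 1 library, the lowest without control replicate 3 at 48 hr. WNK1-deficient cells from 24 to 48 hr had 1576 in DESeq2, 427 with lane and 287 to 1252 leaving out 1 library, the lowest without WNK1-deficient replicate 2 at 24 hr. At 24 hr the range was 863 to 1911, the lowest without WNK1-deficient replicate 2, and between control cells at 48 and 0 hr it was 4611 to 5882. With no filter on low values 11775 genes, of a larger number tested, were held within 2-fold. The mean distance of WNK1-deficient cells at 48 hr was 1.01 to control cells at 24 hr and 0.863 to those at 48 hr with a pseudocount of 5, 0.951 and 0.807 over genes with a mean of at least 100, and 0.525 and 0.423 as a median absolute difference, so the order held in each. Sex differs with the groups and cannot be told apart from them.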
